A study of Homo sapiens with 28 samples.

Results

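The respiratory chain and ATP synthase of the inner mitochondrial membrane are built from 5 enzyme complexes, and the nuclear genes of their subunits were followed here through xenograft tumours of human renal cell carcinoma that had grown through treatment with a kinase inhibitor. The members were all genes with symbols beginning NDUFA, NDUFB, NDUFC, NDUFS or NDUFV and a number, SDHA to SDHD, UQCR, COX4 to COX8 or ATP5, without assembly factors and pseudogenes. This rule uses names only and gave 87 protein-coding genes. Of these 78 had a probe set annotated to a single gene symbol, and 74 passed the filter on low signals, among 13808 genes tested in all. The 74 were 32 genes of complex I, 3 of complex II, 6 of complex III, 16 of complex IV and 17 of ATP synthase (complex V). COX7A1, COX7B2, COX8C and ATP5MF lay below the filter, ATP5MF on the only single-symbol probe set it had. The genes of the rule without such a probe set were not analysed here. NDUFA4 and its paralogue NDUFA4L2 are counted with complex IV, to which the NDUFA4 protein belongs despite its name.

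Complex I takes electrons from NADH and complex II from succinate. Both pass them through ubiquinone to complex III, which hands them to cytochrome c, and complex IV gives them to oxygen. The proton gradient that complexes I, III and IV build up drives ATP synthase. Clear cell renal carcinomas that have lost the VHL tumour suppressor keep hypoxia-inducible factors (HIF) active in normal oxygen, and such tumours are known for high glycolysis and low respiratory capacity.

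The study measured 28 tumours on 1-colour Affymetrix HG-U133 Plus 2.0 arrays. The 786-O line and the A498 line, both without a working VHL gene, were injected under the skin of female athymic nude/beige mice 6 to 8 weeks old. Sorafenib inhibits VEGF and PDGF receptors and RAF kinases, and sunitinib VEGF and PDGF receptors and KIT. The groups were 5 sorafenib-resistant 786-O tumours (80 mg/kg by gavage on 6 days a week, begun at a diameter of 12 mm) and 5 untreated 786-O tumours of that arm, 4 sunitinib-resistant 786-O tumours (53.6 mg/kg on the same schedule) and 5 untreated 786-O tumours of that arm, and 5 sorafenib-resistant and 4 untreated A498 tumours. Tumours were excised at the starting size or at the permitted 20 mm, and the labels do not say which size each untreated tumour had. Nor do they state that no mouse carried more than 1 tumour, so the p-values speak only for the scatter among these tumours. The titles of the 786-O sorafenib arm begin with another number than those of the other arms. The untreated A498 tumours were therefore compared with the untreated 786-O tumours of the sunitinib arm.

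The deposited values are linear signals scaled by the authors to a common trimmed mean, which was 500.1 on every array. Differences are given as log2(signal + 16) ± standard error from 1 limma model over all genes, where a gene is called to have risen or fallen at an adjusted p under 0.05. A signal can be compared between tumours for a gene but not between genes. Arrays of a group correlated at 0.949 to 0.971. On 10 or 11 of 11 measured renal carcinoma markers the group means were above the filter limit (signal 89.4). The probes are human, and host RNA can bind to some of them. In bulk tumours, fewer cells with a transcript and less of it per cell cannot be told apart. The highest array on the members was untreated 786-O replicate 5 of the sorafenib arm. Its median member lay 0.25 above the mean of its group. The 4 other arrays of that group lay between -0.13 and 0.02. This replicate 5 also had the highest difference between the 3-prime and 5-prime ACTB control probe sets (1.03, against 0.22 to 0.40 in the rest of its group). The member counts and medians of that arm are given with and without it. Counts from other gene lists, of ranges without overlap and of calls shared with the line comparison are given only with it.

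The promoter windows of 3 members are shown first, as the 250 bases before the gene start in RefSeq's GRCh38.p14 annotation, 5′ to 3′ on the gene's strand. NDUFA4L2 is the member with the largest difference in the data, and NDUFA3 and ATP5F1C are the members that fell under sorafenib in 786-O and hold a match to the NRF1 motif. NRF1, a transcription factor of nuclear genes for mitochondria, was searched as GCGCA, any base and GCGC, the HIF core as ACGTG or GCGTG, and the ETS core as CCGGAAG, all on both strands. Capitals mark the HIF matches in NDUFA4L2 and the NRF1 matches in the other 2.

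NDUFA4L2, chr12:57240763-57241012, minus strand: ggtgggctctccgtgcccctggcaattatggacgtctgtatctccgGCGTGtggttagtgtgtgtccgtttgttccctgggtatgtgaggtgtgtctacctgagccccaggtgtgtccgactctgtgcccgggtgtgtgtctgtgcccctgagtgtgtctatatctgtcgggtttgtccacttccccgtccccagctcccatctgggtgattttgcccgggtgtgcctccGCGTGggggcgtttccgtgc
NDUFA3, chr19:54102605-54102854, plus strand: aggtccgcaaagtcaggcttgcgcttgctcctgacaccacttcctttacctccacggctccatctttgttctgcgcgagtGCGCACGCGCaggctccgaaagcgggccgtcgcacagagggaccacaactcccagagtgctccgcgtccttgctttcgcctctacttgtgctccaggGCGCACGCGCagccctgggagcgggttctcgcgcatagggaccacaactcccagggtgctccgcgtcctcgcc
ATP5F1C, chr10:7787927-7788176, plus strand: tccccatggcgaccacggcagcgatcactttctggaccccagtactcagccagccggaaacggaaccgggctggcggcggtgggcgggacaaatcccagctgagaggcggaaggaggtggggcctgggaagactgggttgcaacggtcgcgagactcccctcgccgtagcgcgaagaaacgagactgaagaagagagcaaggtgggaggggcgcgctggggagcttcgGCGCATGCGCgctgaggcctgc

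The HIF matches of NDUFA4L2 begin 204 and 20 bases before the start. The NRF1 matches of NDUFA3 begin 170 and 73 bases before it, each overlapping an HIF core match on the other strand, and that of ATP5F1C begins 22 bases before it. Windows were listed for 65 of the 74 members tested. The NRF1 motif was in 13 of them (20.0%), against 7.65% of all 15843 protein-coding windows. The ETS core was in 15 (23.1%), against 11.8% of all, and the HIF core in 37 (56.9%), against 50.5% of all. Among the 11 members that fell under sorafenib in 786-O, 6 had a window and 2 of these held the NRF1 motif. It was in 11 of the windows of the 59 other members (18.6%). The ETS core was in 0 of the 6, against 25.4% of the others, and the HIF core in 2, against 59.3% of the others. A match describes these letters only.

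In untreated tumours the lines differed most in NDUFA4L2, a HIF target gene whose product is known to limit oxygen use in hypoxic cells. Its signal was 4503, 3839, 4807 and 5407 in the 4 untreated A498 tumours, against 249.5, 156, 100.3, 38.1 and 125 in the untreated 786-O tumours of the sunitinib arm. A498 was higher by 5.12 ± 0.33 (adjusted p = 1.66e-12, 34.9-fold on this scale), and the groups lay far apart. The 5 untreated 786-O tumours of the sorafenib arm were at 197 to 241, also far below A498. The level did not pass the test within any arm. It was 4479 to 10876 in sorafenib-resistant A498 tumours (0.41 ± 0.33, adjusted p = 0.514), with the highest tumour of the series among them. In 786-O it was 71.1 to 299 in sorafenib-resistant tumours (-0.51 ± 0.31, adjusted p = 0.300) and 169 to 222 in sunitinib-resistant tumours (0.64 ± 0.33, adjusted p = 0.305). The paralogue NDUFA4, a subunit of complex IV in most tissues, had 10081 to 14132 in untreated A498 tumours, against 10067 to 13053 in untreated 786-O tumours (0.09 ± 0.13, adjusted p = 0.582). These ranges overlapped almost fully, so of the paralogues NDUFA4L2 alone was called between the lines.

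**Figure D1:**
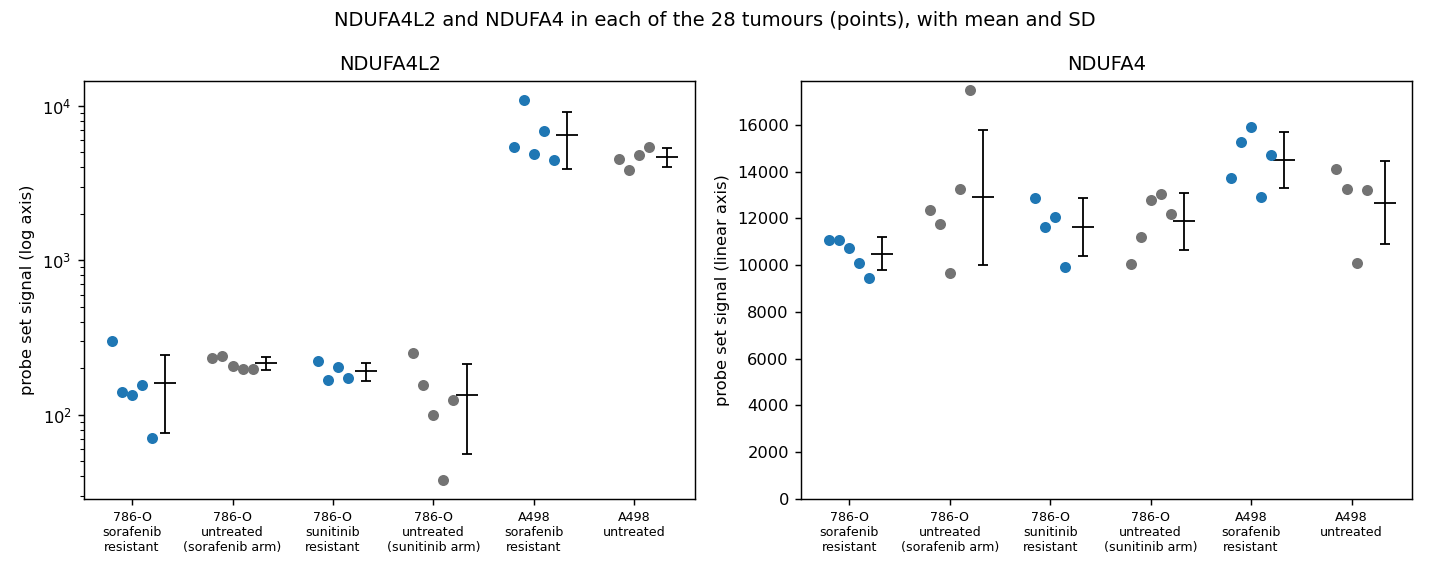
Probe set signal of NDUFA4L2 (left, log axis) and NDUFA4 (right, linear axis) in each of the 28 tumours, with mean and SD of each group of 4 or 5. All 9 A498 tumours lie between 3839 and 10876 for NDUFA4L2 and all 19 of 786-O between 38.1 and 299, while the NDUFA4 ranges overlap.

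Over all 74 members, 27 were higher and 13 lower in untreated A498 than in untreated 786-O tumours, which is 54.1% of them. Of all genes 58.0% were called in this comparison, 27.3% higher and 30.6% lower, so the members' share of calls was near that of genes at large. Ranges of signal did not overlap for 24 members higher and 11 lower in A498 (all genes 23.1% and 24.4%). The median member difference was 0.09, against -0.06 over all genes. With single arrays left out it ranged from 0.066 without A498 replicate 1 to 0.16 without A498 replicate 3.

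Complex I gave 14 higher and 5 lower of 32. Among its core subunits, which carry the catalytic centres, NDUFS1, the largest iron-sulphur subunit, was higher by 0.85 ± 0.07 (adjusted p = 3.74e-10). NDUFS7, an iron-sulphur subunit near the quinone site, was higher by 0.35 ± 0.10, while NDUFV1, the NADH-binding subunit, differed by 0.09 ± 0.10 (adjusted p = 0.439). NDUFS4 is an accessory subunit required for stable assembly of the NADH-binding arm. Its signal was 3834, 3869.5, 4471 and 3312 in untreated A498 tumours, against 1684, 1641, 1844, 1757 and 1721 in untreated 786-O tumours (1.15 ± 0.09, adjusted p = 3.90e-11). Every A498 tumour was above every 786-O tumour. NDUFA3 (1.19 ± 0.14) and NDUFV3 (1.08 ± 0.10), further accessory subunits, were also higher. NDUFB11 (-0.59 ± 0.10), NDUFS6 (-0.56 ± 0.09) and NDUFB2 (-0.46 ± 0.10) were lower, so accessory subunits of complex I differed in both directions.

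Of complex II, SDHA, the flavoprotein that oxidises succinate, was higher in A498 by 0.90 ± 0.09 (adjusted p = 6.77e-09). SDHC, a membrane anchor, was higher by 0.55 ± 0.11, and SDHD, the other anchor, differed by -0.07 ± 0.13 (adjusted p = 0.657). In complex III the core protein UQCRC2 was higher by 0.89 ± 0.09 and UQCRC1 by 0.28 ± 0.10, and UQCRB, a small subunit at the quinone site, was lower (-0.51 ± 0.11). Complex IV gave 6 higher and 2 lower of 16. COX5B (0.83 ± 0.10), COX4I1 (0.26 ± 0.10) and COX5A (0.22 ± 0.09, adjusted p = 0.0478) were among the higher ones, and COX6C (-0.48 ± 0.11) was lower.

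ATP synthase was the complex with more members lower (5) than higher (3) in A498. ATP5F1E, the epsilon subunit of the F1 head, had signals of 14549.7, 13587, 10129 and 13910.3 in untreated A498 tumours, against 24192, 21455, 23374, 24510.0 and 23384 in untreated 786-O tumours (-0.85 ± 0.13, adjusted p = 5.67e-06). No A498 tumour reached the lowest 786-O tumour, but the other ATP5F1E probe set was called in the opposite direction (1.26 ± 0.31). ATP5MG (-0.70 ± 0.10), a membrane subunit, and ATP5IF1 (-0.35 ± 0.11), the inhibitor protein of ATP hydrolysis, were lower as well. The alpha and beta subunits of the head, ATP5F1A (-0.10 ± 0.10, adjusted p = 0.392) and ATP5F1B (0.16 ± 0.09, adjusted p = 0.141), did not pass the test. A set of 3 genes encodes the same c subunit of the rotor ring, and ATP5MC1 (0.66 ± 0.12) and ATP5MC3 (0.55 ± 0.10) were higher while ATP5MC2 differed by -0.04 ± 0.09 (adjusted p = 0.716). NDUFA10 and NDUFB8 also had probe sets called in opposite directions.

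The members are spread over 22 chromosomes, and their differences between the lines followed no single direction by position. On chromosome 2, 5 of 6 members were called higher in A498, where the median over all 925 genes was 0.28. Of the 4 on chromosome 16, 3 were called higher (all genes 0.27), and of the 10 on chromosome 19, 5 (all genes 0.05). On chromosome 14 both members were called lower (all genes -0.41), and on chromosome 8, 2 of 3 (all genes -0.09). Some other chromosomes also had calls in the direction of their median. Of 2 members on chromosome 17, 1 was called higher and 0 lower (all genes 0.23). Of 3 on chromosome X, 0 were called higher and 1 lower (all genes -0.26). On others the calls did not go with the chromosome. Of 3 members on chromosome 3, 1 was called higher and 0 lower (all genes -0.25), and of 3 on chromosome 10, 1 each way (all genes -0.27). Of 6 on chromosome 12, 1 was called higher and 0 lower (all genes -0.18), and of 2 on chromosome 18, 0 were called (all genes -0.40). Whether the number of gene copies differed was not tested.

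**Figure D2:**
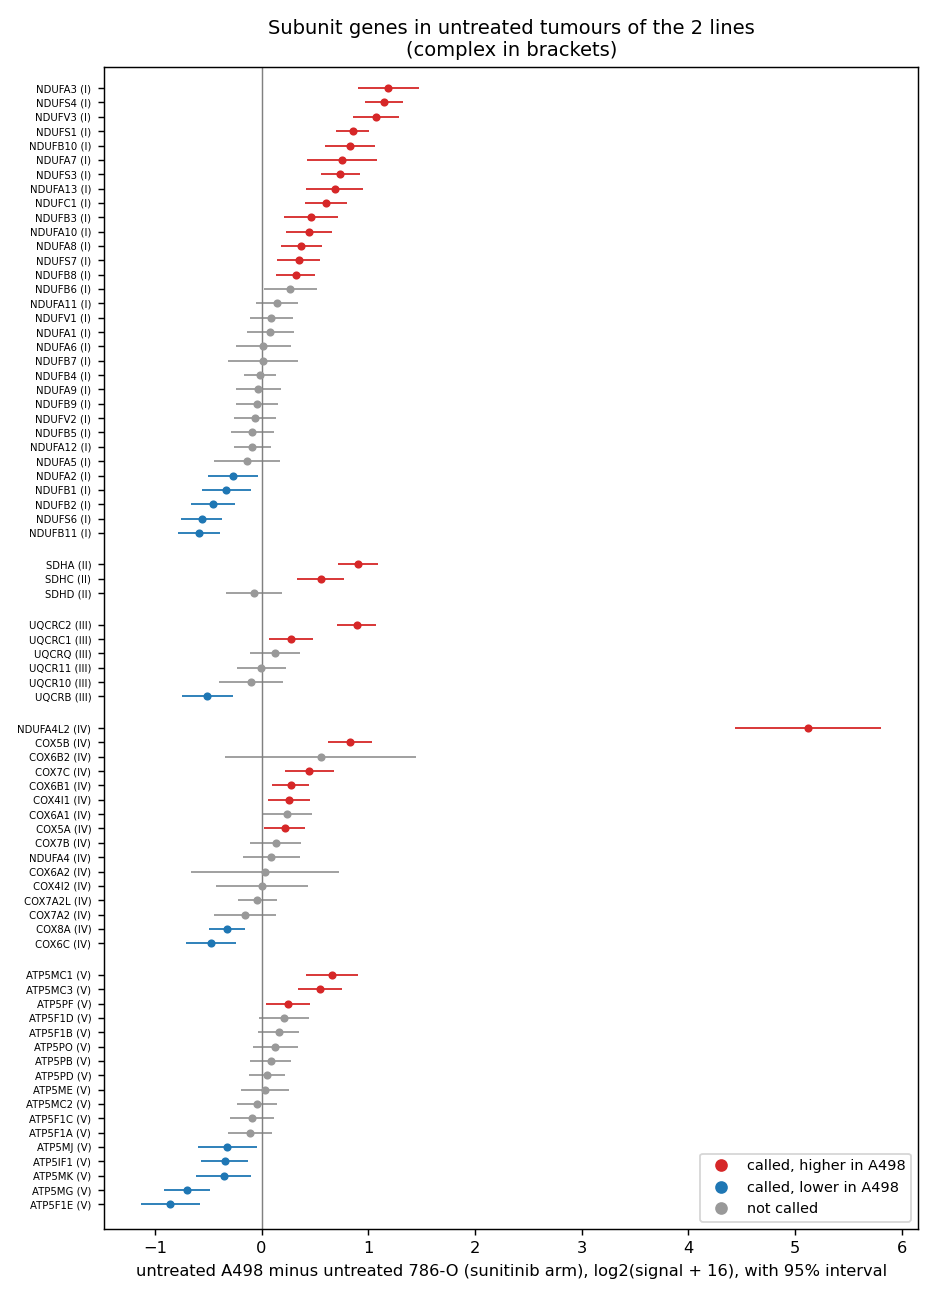
Difference of each of the 74 members between untreated A498 and untreated 786-O tumours of the sunitinib arm (points, log2(signal + 16), bars are 95% intervals), ordered within each complex. NDUFA4L2 stands at 5.12 and the other 73 members lie between -0.85 and 1.19.

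Against untreated tumours of their arm, sorafenib-resistant 786-O tumours had 11 members that fell and 0 that rose of 74, which is 14.9% of them. Of all genes 9.18% fell and 5.97% rose (15.2% in all). The called falls were small, from -0.53 to -0.26. They came from complexes I (4 of 32), II (1 of 3), III (2 of 6) and V (4 of 17), and 0 of 16 members of complex IV were called, with 3 at an unadjusted p under 0.05. By sign 62 of 74 members (83.8%) were lower, against 56.9% of all genes, and the median member difference was -0.14, against -0.05 over all genes. Signal ranges did not overlap for 9 members lower and 0 higher, where the shares of all genes were 7.40% and 5.08%.

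SDHC, a membrane anchor of complex II, had signals of 2259, 2135, 2064, 1716 and 1807 in sorafenib-resistant tumours, against 2432, 2919, 2897, 2941 and 3282 in untreated tumours of the arm. All 5 resistant tumours were below all 5 untreated ones, and the gene fell by 0.53 on the log2 scale (± 0.10, adjusted p = 6.07e-04). Of its 7 probe sets 3 were called lower and 0 higher when all probe sets were tested. Averaging the probe sets gave -0.29 (adjusted p = 0.0631), and leaving out those open to cross-hybridisation gave -0.31 (adjusted p = 0.195). Of the other complex II genes, SDHA differed by -0.00 ± 0.09 (adjusted p = 0.984) and SDHD by -0.27 ± 0.12 (adjusted p = 0.131).

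In complex I, NDUFB5, an accessory subunit of the membrane arm, was at 6354, 5805, 5456, 4810.1 and 4702 in resistant tumours, against 7469, 6921, 6670.3, 7561 and 8822 in untreated tumours (-0.47 ± 0.09, adjusted p = 0.00106). NDUFS4 was at 1479, 1605, 1495, 1428 and 1671, against 1875, 1709.9, 1804, 2057 and 2144 in untreated tumours (-0.32 ± 0.08, adjusted p = 0.0111). The 2 groups did not overlap for either gene. NDUFA3 (-0.43 ± 0.13, adjusted p = 0.0256) and NDUFB3 (-0.38 ± 0.12, adjusted p = 0.0278) fell with overlap of the ranges. When all probe sets were tested, some complex I genes not called had another probe set called lower. These were NDUFA2 (-0.88 ± 0.27), NDUFB2 (-0.48 ± 0.15), NDUFB8 (-0.38 ± 0.12) and NDUFA6 (-0.37 ± 0.11), named after their values were seen. The probe set used for NDUFA2 was at 0.09 ± 0.11. None of the 5 core subunits tested was called, although all 5 had a negative difference (median -0.15), NDUFS1 among them (-0.20 ± 0.07, adjusted p = 0.0576), with NDUFV1 at -0.20 ± 0.09 and NDUFS7 at -0.12 ± 0.09.

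In complex III, UQCRB fell by 0.36 on the log2 scale (± 0.11, adjusted p = 0.0250) and UQCRC2 also fell, while UQCRC1 differed by 0.09 ± 0.10 (adjusted p = 0.601). Among the principal subunits of complex IV, COX4I1 (-0.09 ± 0.09), COX5A (-0.00 ± 0.09) and COX5B (-0.13 ± 0.09) had adjusted p-values of 0.370 to 0.985. NDUFA4, at 9465 to 11092 in resistant tumours and 9651 to 17479 in untreated tumours, differed by -0.27 ± 0.12 (adjusted p = 0.138). Leaving out NDUFA4L2 and the tissue isoforms COX4I2, COX6A2 and COX6B2, the median of the 12 other complex IV members was -0.11, the same as over all 16.

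ATP synthase had a negative difference in 16 of 17 members, with a median of -0.20. ATP5MC1 was at 2518, 2074, 2113, 1829 and 1754 in resistant tumours, against 2699.7, 2999, 2620.2, 2942 and 3203 in untreated tumours (-0.50 ± 0.11, adjusted p = 0.00304). Again no resistant tumour reached an untreated one. Its sister gene ATP5MC3 fell by 0.35 on the log2 scale (± 0.10, adjusted p = 0.0128), and ATP5MC2, the third c subunit gene, differed by -0.21 ± 0.09 (adjusted p = 0.111). Of the F1 head, the catalytic beta subunit ATP5F1B fell by 0.26 on the log2 scale (± 0.09, adjusted p = 0.0413) and the central stalk subunit ATP5F1C fell too, while ATP5F1A was at -0.24 ± 0.09 (adjusted p = 0.0882). ATP5IF1 was at -0.29 ± 0.10 (adjusted p = 0.0513).

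**Figure D3:**
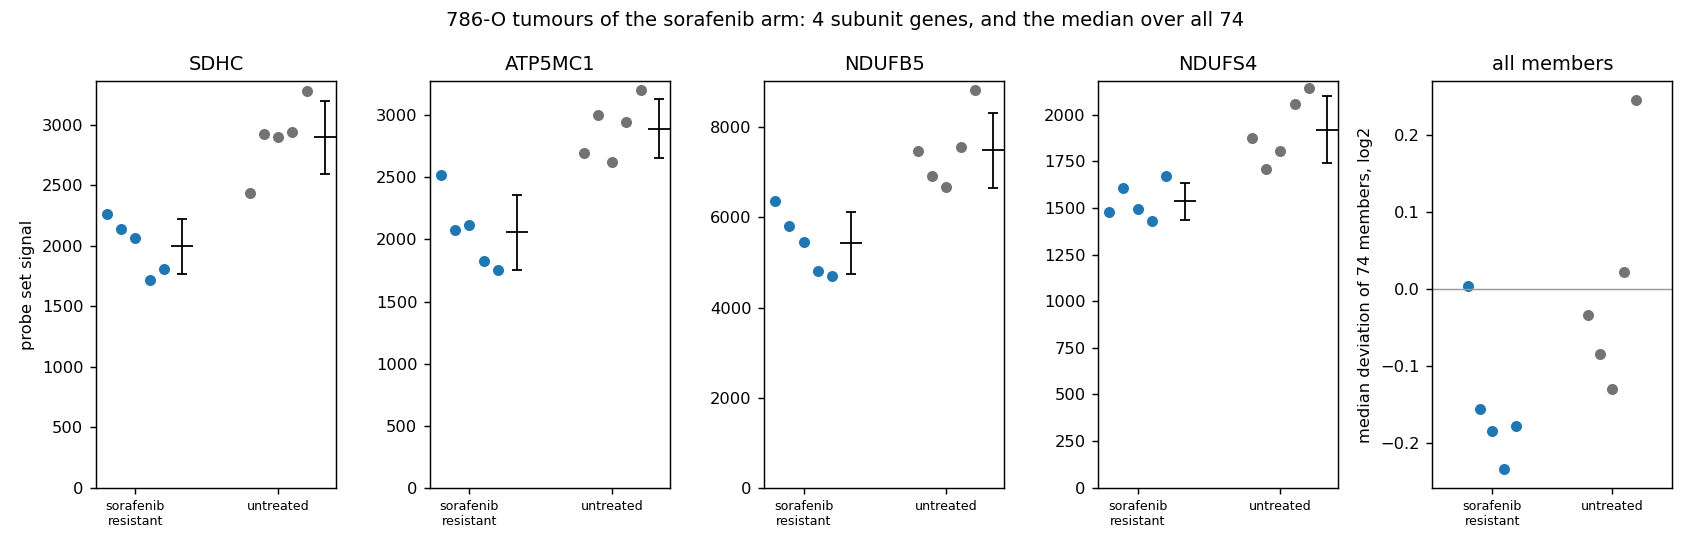
Signal of SDHC, ATP5MC1, NDUFB5 and NDUFS4 in 5 sorafenib-resistant and 5 untreated 786-O tumours (points, with mean and SD), and at right the median deviation of the 74 members of each tumour from the untreated mean of the arm (log2). The groups do not overlap in the 4 genes, and in the right panel the resistant tumours lie between -0.23 and 0.00 with the untreated ones between -0.13 and 0.25.

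Single arrays weighed on this arm. Without untreated replicate 5, 5 members were called (ATP5MC1, ATP5MC3, NDUFB5, NDUFS4 and SDHC) where 11.8% of all genes were. By sign 52 of 74 members (70.3%) were then lower, against 55.3% of all genes, with a median of -0.06 against -0.03 over all genes. The complex medians became -0.09 for I, -0.23 for II, -0.12 for III, 0.02 for IV and -0.15 for ATP synthase, so that of complex IV changed sign. Without untreated replicate 4, or resistant replicate 4 or 5, 7 members were called in each case, where 11.4% to 12.9% of all genes were. Leaving out both arrays with the highest ACTB difference, untreated replicate 5 and resistant replicate 4, kept ATP5MC1, NDUFB5 and SDHC, where 8.93% of all genes were called. The same 3 were kept when each array was centred on its own median, where 13.9% of all genes were called. Beside these falls, markers of fibroblasts and pericytes were lower in the same tumours. Whether host or tumour cells gave the marker signals was not tested. The summed signal of 16 fibroblast and pericyte markers was 3981 to 6060 in resistant tumours and 9217 to 12676 in untreated tumours, and 7 of the 12 tested fell, COL3A1 (-1.93 ± 0.30) and COL1A2 (-1.83 ± 0.27) by the most. The sum over 14 skeletal muscle markers was 638 to 1229 in resistant tumours and 850.0 to 2531 in untreated tumours, and 1 of 7 tested fell (DES, -0.84 ± 0.27). Other sums overlapped. The sum over 12 endothelium markers was 403 to 796 in resistant tumours and 661 to 779 in untreated tumours. Of its 4 tested markers 1 fell, TIE1, which lay below the filter limit in all resistant tumours. The sum over 11 macrophage markers was 603 to 853 against 702 to 1173, and 1 of 6 tested fell (AIF1). The sum over 8 adipose markers was 312 to 418 against 227 to 561, with no call. Of the defining markers CDH5, KDR and VWF of endothelium, CD163 of macrophages, CKM and MYH1 of muscle and PLIN1 of fat lay below the filter. The part of host cells in the falls was not tested.

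In sunitinib-resistant against untreated 786-O tumours, 0 of 74 members were called by limma, where 5.06% of all genes were, and 6 members had an unadjusted p under 0.05. When all probe sets were tested, a probe set not used for the gene was called lower for ATP5IF1 (-0.57 ± 0.16, adjusted p = 0.042). The same held for UQCRB (-0.74 ± 0.20, adjusted p = 0.041). By sign 45 members were higher and 29 lower with a median of 0.03, against 52.1% lower and a median of -0.01 over all genes. The members' median ranged from 0.0088 without resistant replicate 1 to 0.072 without resistant replicate 4, and was -0.03 after quantile normalization. Complex IV had 13 of 16 members higher (median 0.10) and ATP synthase 11 of 17 (median 0.04). The lowest adjusted p was that of SDHD, with signals of 3705, 3282, 2649 and 2764 in resistant tumours, against 3698, 3563, 4374, 4487 and 3984 in untreated tumours of the arm (-0.38 ± 0.13, adjusted p = 0.0878). COX7A2L, a factor that joins complexes III and IV into supercomplexes, was at 6413, 5689, 5907 and 5828, against 4571, 4525, 5204, 5632 and 5022 in untreated tumours (0.26 ± 0.09, adjusted p = 0.0979). Its ranges did not overlap, and the same held for NDUFA1 (higher) and UQCRC2 (lower), which were named after their values were seen. In all these were 2 members higher and 1 lower, where 4.12% and 4.34% of all genes had ranges that did not overlap in these directions. Of the 4 genes plotted for the sorafenib arm, SDHC differed by -0.13 ± 0.11, ATP5MC1 by -0.09 ± 0.12, NDUFB5 by -0.06 ± 0.10 and NDUFS4 by 0.14 ± 0.09, with adjusted p-values of 0.402 to 0.818. The fibroblast and pericyte sum was 5083 to 9527 in resistant tumours and 5493 to 10301 in untreated tumours, and 1 of the 12 tested markers fell (RGS5, -0.99 ± 0.24). The muscle marker sum was 1197 to 2348 in resistant tumours and 543 to 1571 in untreated tumours, with 7 of 7 tested markers higher (median 0.85) and 0 called. Their part in the members' differences was not tested.

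In A498 tumours that had grown on sorafenib, 2 members fell and 0 rose, 2.70% of them, where 3.40% of all genes fell and 2.93% rose (6.34% in all). Both falls were in complex I. NDUFA7, an accessory subunit, had signals of 1105, 1004, 1448, 911 and 1286 in resistant tumours, against 1926, 1624, 1476 and 1794 in untreated tumours (-0.57 ± 0.16, adjusted p = 0.0310). NDUFS1 was at 2735, 2485, 2401, 2350.1 and 2604, against 3346, 2956, 2753 and 2942 in untreated tumours (-0.25 ± 0.07, adjusted p = 0.0419). The 2 groups did not overlap for either gene, though the gap was narrow for both, and NDUFS7 was at -0.28 ± 0.10 (adjusted p = 0.0889). Of 5 NDUFS1 probe sets, 2 others were called lower when all probe sets were tested (-0.49 ± 0.10 and -0.73 ± 0.21) while the one used for the gene then had an adjusted p of 0.0708.

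Complex I had 25 of 32 members lower (median -0.07), among them all 5 core subunits tested, where 45.8% of all genes were lower. The medians were -0.09 for complex II, -0.01 for complex III, 0.03 for complex IV and 0.07 for ATP synthase, and -0.02 over the 74 members, against 0.03 over all genes. Over the members it changed sign with single arrays, to 0.033 without untreated replicate 1 and 0.016 without resistant replicate 4, and was -0.068 without untreated replicate 3. COX7A2L was again higher without overlap, at 5353 to 6094 in resistant tumours and 4353 to 5227 in untreated tumours (0.23 ± 0.09, adjusted p = 0.130). Ranges did not overlap for 4 members lower and 2 higher in all (all genes 5.00% and 4.14%). Beside those given these were NDUFA3 and NDUFS7, lower, and ATP5PO, higher, of which NDUFA3 and ATP5PO were named after their values were seen. Neither fall was stable to single arrays. Without untreated replicate 1, 2 or 4, or resistant replicate 2 or 4, 0 members were called, and without resistant replicate 3 or 5, 1 member was. The fibroblast and pericyte sum was 11439 to 25652 in resistant tumours and 7827 to 17254 in untreated tumours, with 9 of the 12 tested markers higher and 0 called.

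**Figure D4:**
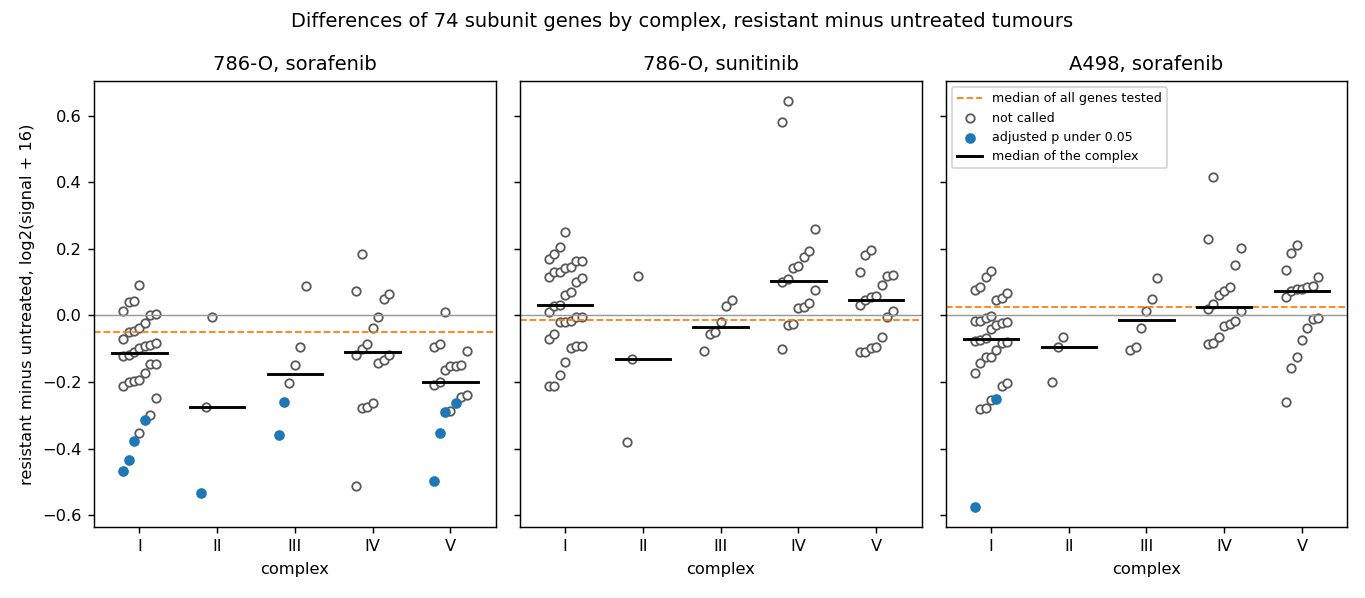
Differences of the 74 members by complex in the 3 arms (points, resistant minus untreated, log2(signal + 16), filled where called), with the median of each complex (bar) and of all genes tested (dashed). In the 786-O sorafenib arm the 5 medians lie between -0.27 and -0.11, and in the other arms between -0.13 and 0.10.

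Whether the arms differed was tested on the differences themselves. Between the 786-O arms, sorafenib minus sunitinib, 0 of 74 members were called (0.949% of all genes were), with 13 at an unadjusted p under 0.05. The lowest adjusted p was that of NDUFS4 (-0.46 ± 0.12, 95% interval -0.71 to -0.21, adjusted p = 0.0662), and the median member was at -0.20 with 64 of 74 negative, against -0.03 and 54.6% negative over all genes. Without untreated replicate 5 these were -0.13 and 60 of 74, against -0.02 and 53.3% negative over all genes. In the same contrast 12 of 12 fibroblast and pericyte markers (median -0.68, 1 called) and 7 of 7 muscle markers (median -1.71, 0 called) were negative. Between the lines under sorafenib, A498 minus 786-O, 0 members were called (5.19% of all genes were), again with 13 at an unadjusted p under 0.05. ATP5MC3 (0.43 ± 0.14, 95% interval 0.15 to 0.72, adjusted p = 0.0688), ATP5MC2 (0.39 ± 0.13, adjusted p = 0.0695) and SDHC (0.44 ± 0.15, adjusted p = 0.0803) came closest. Of the 3 ATP5MC3 probe sets, another was called lower in both lines when all probe sets were tested (-0.56 ± 0.17 in 786-O and -0.69 ± 0.18 in A498). The remaining ATP5MC3 probe set was called in neither (-0.25 ± 0.11 and 0.07 ± 0.11). The median member was at 0.15 with 56 of 74 positive, against 0.07 with 8013 of 13808 positive over all genes. Without untreated 786-O replicate 5 the median member was at 0.074 with 48 of 74 positive, against 0.055 with 7818 of 13808 positive over all genes. It was 0.080 without untreated A498 replicate 3, and -0.03 when arrays were centred on their median. Of the markers 11 of 12 for fibroblasts and pericytes (median 0.95, 4 called) and 7 of 7 for muscle (median 0.96, 0 called) were positive too. The part of host cells in these contrasts was not tested. The medians of ATP synthase were -0.24 between the 786-O arms and 0.24 between the lines, and -0.16 and 0.14 without untreated replicate 5. Both comparisons contain the 786-O sorafenib arm. The untreated 786-O tumours of the sorafenib arm minus those of the sunitinib arm gave 0 called members (0.275% of all genes), 4 at an unadjusted p under 0.05 and a median of 0.00, which was -0.057 without replicate 5 of the sorafenib arm.

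Of the 11 members that fell under sorafenib in 786-O, 7 were among those called higher in untreated A498 (63.6% of the falls and 25.9% of the 27 higher) and 1, UQCRB, was among the lower. Of all 1267 genes that fell, 35.8% were called higher in untreated A498, and these were 12.0% of the 3772 higher. The group means of the 2 comparisons share no arrays. Both use the same estimate of each gene's spread, made from all arrays together, so the 2 sets of calls are not independent. A gene with little spread is more easily called in both. The part of this in the shared calls was not tested.

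Several subunits exist in tissue forms. COX4I2, the form of COX4 found in lung and induced by low oxygen, had signals of 108 to 261 in all 28 tumours, and its differences in the arms were 0.18 ± 0.20, -0.10 ± 0.21 and -0.08 ± 0.21 (adjusted p = 0.587 to 0.875). It differed by 0.00 ± 0.21 between the untreated lines. COX6A2, the form of heart and muscle, was at 33.9 to 176, and COX6B2, the testis form, at 8.50 to 179, around the filter limit of 89.4. COX7A1, the other muscle form, stayed at 3.36 to 47.9, COX8C at 1.07 to 39.6 and COX7B2 at 1.94 to 172. The widely used forms COX6A1 and COX7A2 were not called in any arm, with differences of -0.12 to 0.18. A second COX6A1 probe set was called lower in the 786-O sorafenib arm when all probe sets were tested (-1.62 ± 0.37, adjusted p = 0.00479).

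Genes that build or feed the chain were followed in lists. Of all genes, 9.18% fell and 5.97% rose in the 786-O sorafenib arm. In A498 under sorafenib 3.40% of all genes fell and 2.93% rose. Of 18 complex I assembly factors tested 3 fell under sorafenib in 786-O, NDUFAF1 (-0.54 ± 0.13) and NDUFAF5 (-0.31 ± 0.08) by the most, and both fell in A498 too (-0.47 ± 0.14 and -0.36 ± 0.09), where they were the 2 called. Of 16 assembly factors of complexes II, III and V, 4 fell in the 786-O sorafenib arm, led by the F1 chaperone ATPAF1 (-0.52 ± 0.11) and FMC1 (-0.48 ± 0.13), and 0 in the other arms. Complex IV factors gave 3 falls of 24 in 786-O, with the copper chaperone SCO1 (-0.39 ± 0.09) first, and 2 in A498, TACO1 (-0.46 ± 0.09) and SCO1 (-0.36 ± 0.09). No assembly factor rose in an arm, and 0 were called under sunitinib, where 2.22% of all genes rose and 2.84% fell.

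Among 20 electron carriers and enzymes that feed ubiquinone, ETFDH was called in all 3 arms. This enzyme passes electrons from fatty acid oxidation to ubiquinone. Its signal was 506, 469, 501, 348 and 444 in sorafenib-resistant 786-O tumours, against 798, 830.1, 886, 704 and 882 in untreated tumours (-0.84 ± 0.12, adjusted p = 3.69e-05). In sunitinib-resistant 786-O tumours ETFDH was at 628, 653, 579.8 and 564, against 858, 862, 989, 794 and 684 in untreated tumours (-0.45 ± 0.13, adjusted p = 0.0466). In sorafenib-resistant A498 tumours ETFDH was at 891, 939.8, 578, 836 and 682, against 1304, 1243, 1036 and 1293 in untreated tumours (-0.64 ± 0.13, adjusted p = 0.00443). Each resistant tumour lay below every untreated tumour of its arm. In all 6 of the 20 fell and 1 rose in the 786-O sorafenib arm (all genes 9.18% and 5.97%), with ETFB, its electron donor, at -0.50 ± 0.11. In the sunitinib arm 1 fell (all genes 2.84%), and in A498 3 (all genes 3.40%), with COQ6, a ubiquinone synthesis enzyme, at -0.59 ± 0.13. Cytochrome c, CYCS, differed by -0.19 ± 0.09, -0.04 ± 0.09 and -0.01 ± 0.09 (adjusted p = 0.153 to 0.979).

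Of 16 citric acid cycle and pyruvate dehydrogenase genes 3 fell in the 786-O sorafenib arm, where 9.18% of all genes fell. The succinyl-CoA ligase subunit SUCLA2 (-0.40 ± 0.11) and DLD (-0.35 ± 0.09) fell by the most. The pyruvate dehydrogenase subunit PDHA1 was the 1 that fell under sunitinib (-0.40 ± 0.09), where 2.84% of all genes fell. PDHA1 also fell in A498 (-0.37 ± 0.09) with IDH3A (-0.50 ± 0.11), where 3.40% of all genes fell. PDK1, the kinase that shuts pyruvate out of the cycle and a HIF target, rose in A498. It was at 885, 835, 943, 951 and 1089 in resistant tumours, against 754, 608, 702 and 708 in untreated tumours (0.43 ± 0.11, adjusted p = 0.0196), and did not pass the test in 786-O (0.16 ± 0.10 with sorafenib and -0.07 ± 0.11 with sunitinib). The groups of A498 did not overlap. Of 14 HIF-linked genes, ADM (0.66 ± 0.11 and 0.55 ± 0.12) and the glucose transporter SLC2A1 (0.46 ± 0.12 and 0.78 ± 0.12) rose in the sorafenib and sunitinib arms of 786-O. With VEGFA (0.35 ± 0.10 and 0.43 ± 0.11) these were the 3 rises in each arm, where 5.97% and 2.22% of all genes rose. BNIP3, a mitophagy receptor, was the 1 that fell, under sorafenib (-0.40 ± 0.10). LONP1, the protease that removes COX4I1 in hypoxia, differed by -0.07 to -0.01 in the arms.

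PPARGC1A, the coactivator that drives NRF1 and other regulators of these genes, was at 45.6, 40.1, 59.1, 59.0 and 28.1 in sorafenib-resistant 786-O tumours, against 152, 112, 177, 109 and 137 in untreated tumours. All resistant tumours were below the filter limit and all untreated ones above it. It was called lower (adjusted p = 0.00101), at least 1.44-fold when the resistant tumours are set at that limit, on the scale of signal + 16. Under sunitinib PPARGC1A was at 79.5 to 123 in resistant tumours and 112 to 246 in untreated tumours (-0.90 ± 0.28, adjusted p = 0.0572). In A498 it was below the limit on all 9 arrays (8.13 to 65.5 in resistant and 8.01 to 40.3 in untreated tumours). The mitochondrial transcription factor TFAM differed by 0.11 ± 0.11, -0.12 ± 0.11 and -0.17 ± 0.11 in the 3 arms (adjusted p = 0.414 to 0.646). Of the 19 genes of this list POLG, the mitochondrial DNA polymerase, rose in the 786-O sorafenib arm (0.38 ± 0.13) and TFB1M fell under sunitinib (-0.24 ± 0.07).

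Genes of these lists also differed between the untreated lines. ETFB was higher in A498 by 2.32 ± 0.12, IDH3A by 1.33 ± 0.11, COA5 by 1.34 ± 0.12, POLG by 1.85 ± 0.14 and DMAC1 by 1.05 ± 0.11. PPARGC1A was called lower in A498, at least 2.0-fold with A498 set at the filter limit. Also lower were COA8 (-1.26 ± 0.15), PFKFB3 (-1.34 ± 0.18) and COQ3 (-1.09 ± 0.12). Of the 20 electron carriers and their enzymes 13 were higher and 1 lower, where 27.3% and 30.6% of all genes were. PDK1 was lower (-0.45 ± 0.11, adjusted p = 0.00105).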

How the data were processed

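Total RNA of frozen tumours had been hybridised to 1-colour arrays, per the labels. The deposited values are linear intensity values per probe set. RMA and MAS5 are both named in the submitters' processing notes, with no role given, and the equal 2% trimmed means and unequal quantiles of the deposited intensities have the form of MAS5 scaling. Groups were taken from the labels. The members and lists were chosen with earlier results of these data known.

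The analysis used log2(signal + 16). Among 54675 probe sets, 41091 had a single symbol, 1801 several and 11721 none in the annotation, and 62 were controls. A gene was represented by its single-symbol probe set of highest mean. Of 19775 genes, 13808 exceeded the median of all values (log2 6.72) on at least 4 arrays and were tested. The tool limma 3.58.1 (R 4.3.3) estimated a mean for each group from the 28 arrays together, and p-values were adjusted by Benjamini-Hochberg over the 13808 genes, at a threshold of 0.05. Probe sets of a gene were tested separately in a fit over all probe sets. The model was tested on simulated data. Motifs were searched in RefSeq promoter windows, using Python 3.11.15, and plots were made in matplotlib 3.10.9.

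Genes were named by rule: core subunits and isoforms always, at most the 8 largest rises and falls of a comparison with values, the 2 largest called genes of each list, and PDK1, PPARGC1A, TFAM, CYCS and LONP1. Others are marked where named. In 16 alternatives the pseudocount, filter, probe set choice, scaling, variance model, covariates or arrays were changed, and in 28 each array was left out. Precision is limited by having 4 or 5 tumours in a group.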

Additional observations from a re-analysis of the deposited data

Results flagged for a closer look

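Single tumours far from the rest of their group were looked for in 12 members and in the median over all members of each array. That made 78 groups of 4 or 5, where chance marks about 5% of groups, and 3 were found. UQCRC2 was at 5946 in untreated 786-O replicate 5 of the sorafenib arm, while the 4 others of that group lay between 4571 and 4865. This array was also the highest on the median over all members, but that median was not marked. NDUFA7 was at 1052 in sorafenib-resistant 786-O replicate 1, with the 4 others between 775 and 827. ATP5F1E was at 21677 in sunitinib-resistant 786-O replicate 4, with the 3 others between 25024 and 25548.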

How the results depend on the processing

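No paired analysis was possible because the replicate numbers are accession order and pair no samples. Of the 11 members that fell in the 786-O sorafenib arm, 2 (ATP5MC1 and NDUFB5) kept their call under all other settings tried for them and 5 without any 1 array. The count was 3 when arrays were centred on their median, 3 without the 2 arrays of highest ACTB difference, 5 with only the groups of the comparison, and 5 to 16 without any 1 array. Under sunitinib 1 member was called with probe sets averaged per gene, 1 without probe sets open to cross-hybridisation and 1 with array weights, and 0 to 1 without any 1 array. In A498 under sorafenib the count was 0 without a filter, 1 with the mean of probe sets, 0 with only the groups of the comparison, and 0 to 3 without any 1 array. The difference between the 786-O arms had 1 call at a filter at the 75th percentile and 0 to 0 without any 1 array. The difference between the lines under sorafenib had 2 calls at that filter, 1 with the mean of probe sets, 3 after quantile normalization, 2 with a trended robust variance and 0 to 2 without any 1 array. Its median moved to -0.03 with centring and to 0.05 without the 2 ACTB arrays. Between untreated lines 35 to 40 members were called without any 1 array, and 26 of the 40 kept their call under the other settings and 33 without any 1 array. With the mean of all probe sets ATP5F1E (0.20), COX6A1 (-0.61) and NDUFB8 (-0.024) turned direction, as did NDUFB1 (0.019) without probe sets open to cross-hybridisation. Those means include probe sets that differ in sign. For other results the cause was not tested.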
